A study of Mus musculus with 6 samples.

Results

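The genes described here encode proteins of the extracellular matrix other than collagens, the enzymes that crosslink and cut the matrix, and marker genes of the fibroblasts and tenocytes that secrete it. The 46 genes were chosen by symbol, and all 46 were measured, among 23152 genes with a symbol of their own on the array. RNA came from the soleus, a slow postural muscle of the calf, of 18-week-old males after an overnight fast of 14 h. Control mice (WT) were Gna13 flox/flox, and knockout mice (Gna13 MKO) were Ckmm-Cre; Gna13 flox/flox, so both groups carried the floxed alleles and the knockouts alone carried Cre. There were 3 mice per group with 1 array each, labelled as biological replicates. Gna13 encodes the G protein subunit Gα13, which couples receptors to RhoA, and Ckmm is the muscle creatine kinase gene, whose promoter is active in muscle fibres. The comparison addresses how RNA in whole muscle differs when Gα13 is deleted in fibres.

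Most RNA for matrix proteins in muscle is made by fibroblasts and fibro-adipogenic progenitors between the fibres and by tenocytes near the tendon, while part of the basement membrane around each fibre is made by the fibre itself. Collagen fibrils are assembled with small leucine-rich repeat proteoglycans that set their diameter, and are stiffened by lysyl oxidases, which oxidise lysines for covalent crosslinks. Metalloproteinases cut the matrix and their tissue inhibitors (TIMPs) restrain them. In a whole muscle, fewer cells of a type and less RNA per cell cannot be told apart.

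As a check of the labels, 1 of the 7 Gna13 probe sets, 17257825, read 5.48, 6.23 and 6.16 in WT and 3.43, 4.25 and 4.33 in MKO, while 5 of the other 6 were higher on average in MKO. Array medians over all rows ranged from 4.87 to 4.95. The smallest adjusted p over all genes was 0.0917, that of Rrad.

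As a group, the 46 genes stood slightly lower in MKO. The deposited values are on a log2 scale, and every difference given here is the MKO mean minus the WT mean of such values, which is a log2 fold change. The MKO minus WT difference was below 0 for 40 of the 46 genes (87.0%), against 53.4% of all genes, and its median was −0.16, against −0.01 over all genes. After quantile normalization 35 members were below 0, with a median of −0.11, and after median centring 36, with a median of −0.13. With 1 array left out, from 34 (without WT replicate 1) to 43 (without WT replicate 3) were below 0. No member passed the test: with limma and Benjamini-Hochberg adjustment over all genes, 0 of 46 had an adjusted p under 0.05 in either direction (0.0% of all genes in either direction), and the smallest adjusted p among the members was 0.9997. At an unadjusted p under 0.05, 7 members were lower (15.2%, against 2.41% of all genes) and 0 were higher (against 1.92%). Over all genes these were 558 lower and 444 higher, and 354 lower and 545 higher once each array was centred on its median gene. Of the members, 45 lay above the median level of all genes. Among the 11576 genes above that level, 371 were lower and 129 higher at an unadjusted p under 0.05. The 7 lower members were the crosslinking enzyme gene Lox, the thrombospondin genes Thbs2 and Thbs4, the gelatinase gene Mmp2, the proteoglycan gene Bgn, the matricellular gene Sparc and the fibroblast receptor gene Pdgfra. All 3 MKO arrays lay below all 3 WT arrays for 4 members, Lox, Thbs2, Mmp2 and Bgn (8.7%, against 4.99% of all genes), and above them for none (against 4.26%). The members vary together between mice, so these counts are not 46 separate observations. The genes were also chosen with earlier results of these data known, so their shares beside all genes are a description, not a test.

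The count of 7 rested on how probe sets were combined and on single mice. It was 1 (Fn1, at −0.35) when a gene was taken as the median instead of the mean of its probe sets, 2 (Lox and Thbs2) without WT replicate 1, 4 without WT replicate 2 and 15 without WT replicate 3. The median difference of the 46 genes was −0.25 without WT replicate 3 and −0.10 without WT replicate 2 or without MKO replicate 1.

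**Figure D1:**
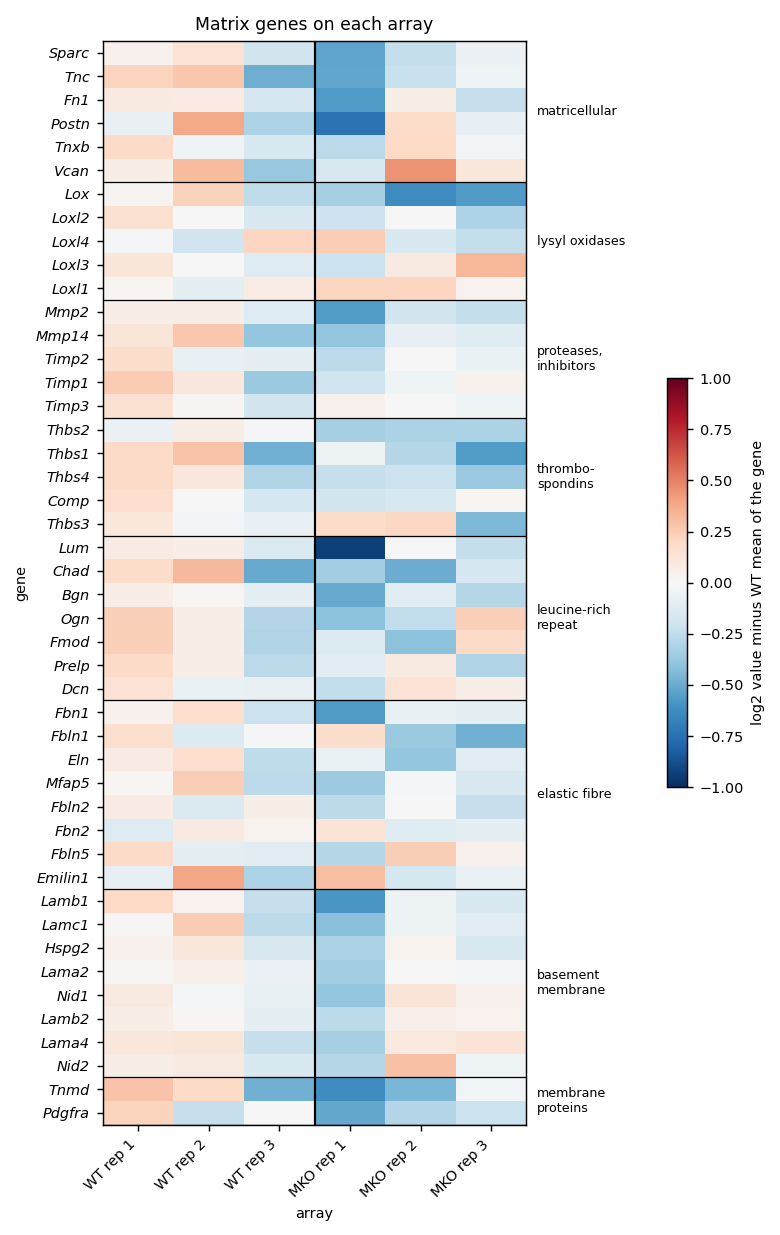
Log2 value of each of the 46 genes (rows, grouped by role) on each of the 6 arrays (columns), drawn as the difference from the WT mean of that gene, blue below and red above it. MKO replicate 1 is the lowest of the 6 arrays for 28 of the 46 genes, and WT replicate 3 is the lowest WT array for 39.

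The mice within each group differed as much as the groups. WT replicate 3 was the lowest WT array for 39 of the 46 genes (84.8%), against 37.2% of all genes, and MKO replicate 1 was the lowest MKO array for 31 (67.4%), against 37.9% of all genes. The mean over the 46 genes, each set against its WT mean, was 0.10, 0.08 and −0.19 in WT replicates 1 to 3 and −0.28, −0.07 and −0.12 in MKO replicates 1 to 3. WT replicate 3 thus lay below MKO replicates 2 and 3, and the groups overlapped. After quantile normalization the means were 0.09, 0.05 and −0.14 in WT and −0.16, −0.04 and −0.15 in MKO. WT replicate 3 then lay below MKO replicate 2 alone, and the groups still overlapped. MKO replicate 1 also had the lowest array median over all rows, 4.87. With both WT replicate 3 and MKO replicate 1 left out, which was chosen after the data were seen, 37 of 46 genes were below 0, the median was −0.19, and 13 members had an unadjusted p under 0.05, all lower, with 0 past the adjusted threshold.

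Lysyl oxidases were the family with the widest spread of differences. Lox, the founding member, which crosslinks collagen and elastin, read 5.72, 5.92 and 5.44 in the WT mice and 5.36, 5.06 and 5.13 in the MKO mice. The highest MKO value was under the lowest WT value, and the difference was −0.51 (SE 0.16, 95% interval −0.85 to −0.17, unadjusted p = 0.00655), a 1.42-fold lower signal. All 10 Lox probe sets were below 0, from −1.06 to −0.05. Lox had an unadjusted p under 0.05 under 14 of 15 alternative settings, with differences from −0.73 to −0.40.

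The related oxidases had no member at an unadjusted p under 0.05. Loxl1, needed for elastic fibre upkeep, read 6.48, 6.37 and 6.54 in WT and 6.68, 6.67 and 6.50 in MKO, a difference of 0.16 (SE 0.12, 95% interval −0.10 to 0.41). That value leaned on dim probe sets: 1 of the 10 Loxl1 probe sets differed by 1.66, 5 were below 0, and with bright probe sets only the gene stood at −0.08. Loxl2, which crosslinks basement membrane collagen IV, differed by −0.17 (SE 0.14, 95% interval −0.47 to 0.13), Loxl3 by 0.07 (SE 0.16) and Loxl4 by −0.05 (SE 0.18). Within each array, Lox minus the mean of its 4 relatives was 0.05, 0.39 and −0.17 in WT and −0.25, −0.58 and −0.43 in MKO. The groups did not overlap, and the difference of −0.51 had a two-sided exact permutation p of 0.1, the smallest that 3 against 3 mice allow. It was 0.15 after Benjamini-Hochberg adjustment over the 3 such contrasts computed. All 3 were chosen after the values were seen, so these p are a description.

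Thrombospondins, multimeric glycoproteins that bind cells and matrix, were all 5 below 0, with 2 at an unadjusted p under 0.05, although Thbs3 was above 0 after quantile normalization (0.03) or median centring (0.0024). Thbs2, which affects collagen fibril assembly, read 7.67, 7.79 and 7.72 in WT and 7.40, 7.41 and 7.41 in MKO. The MKO arrays lay close together and below every WT array, and the difference was −0.32 (SE 0.10, 95% interval −0.53 to −0.11, unadjusted p = 0.00535), with 20 of 21 probe sets below 0. With the median of probe sets, Thbs2 differed by −0.22, with an unadjusted limma p of 0.139. That p was under 0.05 in 14 of 15 alternatives. Thbs4, abundant in tendon and at muscle attachments, read 9.63, 9.55 and 9.14 in WT and 9.21, 9.23 and 9.07 in MKO. Here WT replicate 3 fell among the MKO values, and the difference was −0.27 (SE 0.12, 95% interval −0.52 to −0.02, unadjusted p = 0.0351). All 22 Thbs4 probe sets were below 0, from −0.56 to −0.06. The Thbs4 difference was −0.42 without WT replicate 3 and −0.18 without WT replicate 1, and its unadjusted p was over 0.05 without WT replicate 1, WT replicate 2 or MKO replicate 3. That p was also over 0.05 without the variance trend, with median centring, with the median of probe sets and with bright probe sets only. It was under 0.05 in 8 of 15 alternatives. Thbs1, an activator of latent TGF-beta, differed by −0.30 (SE 0.19), which was −0.54 without WT replicate 3, −0.16 without WT replicate 2 and −0.17 without MKO replicate 3. Comp, the thrombospondin of cartilage and tendon, differed by −0.11 (SE 0.12) and Thbs3 by −0.02 (SE 0.18).

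The sequences before the start of both thrombospondin genes are shown because these genes lay lower in MKO and each holds a motif that was searched for. They are RefSeq sequences of build GRCm38 with 250 bases each, at chr17:14694263-14694512 for Thbs2 and chr13:92794819-92795068 for Thbs4, both on the minus strand, and capitals mark the motif, which in each lies on the opposite strand.
Thbs2: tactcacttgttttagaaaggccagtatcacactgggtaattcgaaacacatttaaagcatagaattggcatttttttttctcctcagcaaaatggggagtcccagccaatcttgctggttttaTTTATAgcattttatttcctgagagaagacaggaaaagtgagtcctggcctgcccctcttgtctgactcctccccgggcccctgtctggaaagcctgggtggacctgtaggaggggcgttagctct
Thbs4: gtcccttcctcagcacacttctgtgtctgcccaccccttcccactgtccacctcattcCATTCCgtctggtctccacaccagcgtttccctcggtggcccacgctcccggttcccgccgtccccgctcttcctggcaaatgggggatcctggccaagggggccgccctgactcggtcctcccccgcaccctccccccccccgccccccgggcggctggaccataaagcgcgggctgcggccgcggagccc

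The motif in Thbs4, GGAATG, is the core recognised by TEAD factors, the DNA-binding partners of YAP, and that in Thbs2 is TATAAA, the letters of a TATA box. The Thbs4 match lies 186 bases and the Thbs2 match 120 bases before the end of the window. Whether either acts in its gene was not tested. Windows were found for 30 of the 46 members, and both strands were searched. GGAATG was in the windows of 4 of these 30 (13.3%; Nid1, Ogn, Thbs4 and Timp1), against 14.4% of 27025 genes. TATAAA was in 5 (16.7%; Chad, Ogn, Postn, Thbs2 and Tnc), against 14.3%. The CArG box of serum response factor, which can hold the letters TATAAA within it, was in 1 (Lama2, 3.33%), against 1.62%, and the SMAD palindrome GTCTAGAC in 0, against 0.2%. The shares among the members thus lay near those over all genes.

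Among the 5 genes of proteases and their inhibitors, 4 were below 0 and 1, Mmp2, had an unadjusted p under 0.05. Mmp2, a gelatinase that cuts denatured collagen and collagen IV, read 8.24, 8.23 and 8.04 in WT and 7.61, 7.99 and 7.93 in MKO. The groups did not overlap, with MKO replicate 1 the lowest, and the difference was −0.32 (SE 0.12, 95% interval −0.58 to −0.07, unadjusted p = 0.0154). Without MKO replicate 1 it was −0.21, and its unadjusted p was over 0.05 without MKO replicate 1, WT replicate 1 or WT replicate 2. That p was also over 0.05 without the variance trend, with median centring and with the median of probe sets. It was under 0.05 in 9 of 15 alternatives. Mmp14, the membrane protease that activates pro-Mmp2, read 6.83, 6.98 and 6.32 in WT and 6.33, 6.63 and 6.60 in MKO, a difference of −0.20 (SE 0.16) with WT replicate 3 the lowest of all arrays. The inhibitors lay near 0: Timp1 differed by −0.07 (SE 0.18), Timp2 by −0.11 (SE 0.12) and Timp3, the TIMP bound to the matrix, by 0.0023 (SE 0.11, 95% interval −0.24 to 0.24).

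Small leucine-rich repeat proteins were below 0 for all 7 members, with 1 at an unadjusted p under 0.05, although Dcn was above 0 after quantile normalization (0.03) or median centring (0.0083). Biglycan, encoded by Bgn, read 9.24, 9.19 and 9.08 in WT and 8.67, 9.06 and 8.89 in MKO. The MKO arrays lay below the WT arrays, though MKO replicate 2 came close to WT replicate 3, and the difference was −0.30 (SE 0.10, 95% interval −0.52 to −0.08, unadjusted p = 0.0117). The median of its 14 probe set differences was −0.17, and 2 of them, at −1.11 each, pulled the gene value down. Without MKO replicate 1 the gene difference was −0.20, and without WT replicate 1 its unadjusted limma p was 0.0513. That p was also over 0.05 without the variance trend, with the median of probe sets and with bright probe sets only. It was under 0.05 in 11 of 15 alternatives. Decorin, encoded by Dcn and the closest relative of biglycan, read 10.10, 9.89 and 9.88 in WT and 9.71, 10.09 and 10.01 in MKO, a difference of −0.02 (SE 0.10, 95% interval −0.24 to 0.20). Without MKO replicate 1 it was 0.10. Within each array, Bgn minus Dcn was −0.86, −0.69 and −0.80 in WT and −1.04, −1.04 and −1.12 in MKO. These did not overlap, and their difference of −0.29 had a two-sided exact permutation p of 0.1 (0.15 adjusted over the same 3 contrasts). That is again the smallest p possible, for a pair chosen after the values were seen, so it is a description. The third contrast, Thbs2 minus Thbs3, differed by −0.30 and overlapped (exact permutation p = 0.4).

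Lumican, encoded by Lum and a regulator of fibril spacing, read 6.35, 6.33 and 6.12 in WT and 5.33, 6.26 and 6.02 in MKO. The difference of −0.39 (SE 0.20, unadjusted p = 0.0725) rested on MKO replicate 1 and was −0.12 without it, although all 4 Lum probe sets were below 0. Chad, encoding chondroadherin of cartilage and tendon, read 8.31, 8.45 and 7.62 in WT and 7.78, 7.63 and 7.96 in MKO, a difference of −0.34 (SE 0.18) that was −0.59 without WT replicate 3 and −0.17 without WT replicate 2. Fmod and Ogn, encoding fibromodulin and osteoglycin, differed by −0.12 (SE 0.16) and −0.14 (SE 0.17), and Prelp, which anchors basement membranes to connective tissue, by −0.11 (SE 0.13).

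**Figure D2:**
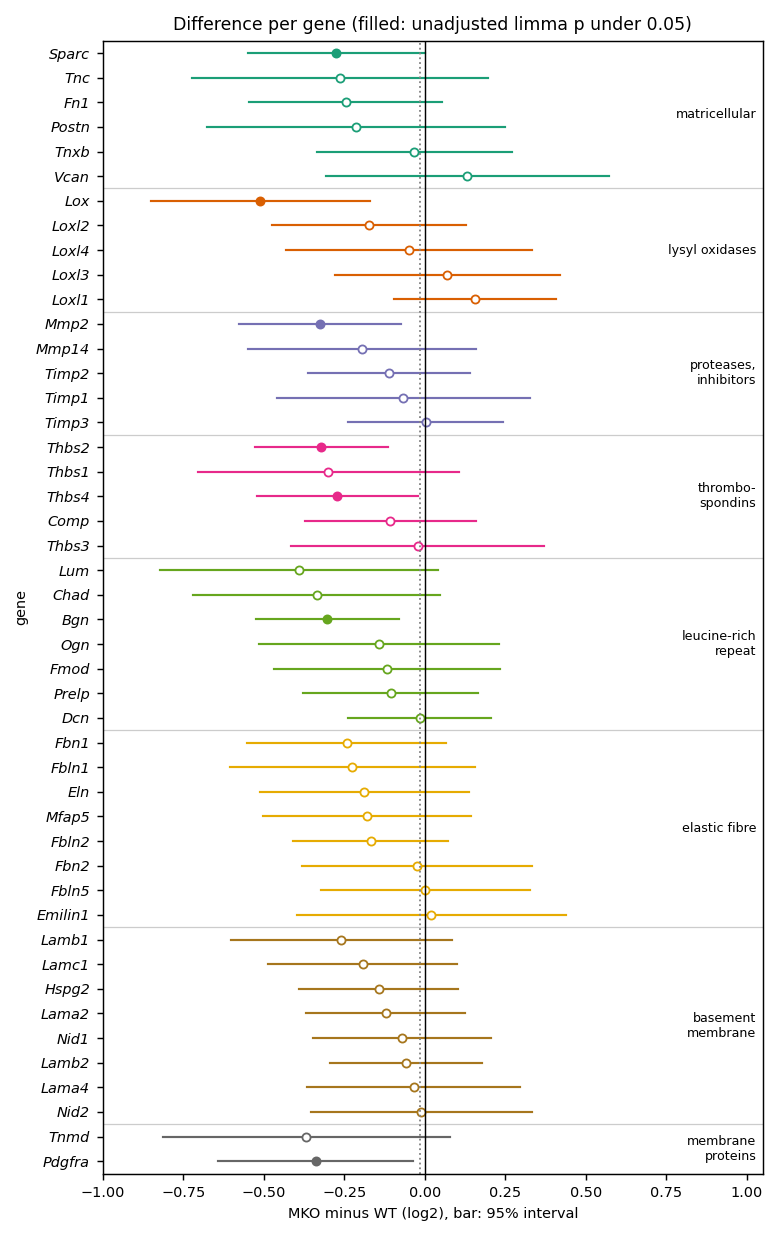
MKO minus WT difference on the log2 scale for each of the 46 genes, ordered by role, with bars for the 95% interval from limma and filled points for an unadjusted p under 0.05. The dotted line is the median of all genes, −0.01, and 40 of the 46 points lie below 0.

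Fibronectin and the matricellular proteins, which modulate how cells attach, had 5 of 6 members below 0. Sparc, a collagen-binding glycoprotein, read 8.40, 8.50 and 8.18 in WT and 7.83, 8.12 and 8.30 in MKO. The groups overlapped, since MKO replicate 3 lay above WT replicate 3, and the difference was −0.28 (SE 0.13, 95% interval −0.55 to −0.00002, unadjusted p = 0.04998). Without MKO replicate 1 it was −0.15, and its unadjusted p was over 0.05 without MKO replicate 1, MKO replicate 2, WT replicate 1 or WT replicate 2. Counting changes of processing too, that p was under 0.05 in 5 of 15 alternatives. Fn1, encoding fibronectin, read 8.81, 8.80 and 8.55 in WT and 8.15, 8.78 and 8.49 in MKO, a difference of −0.25 (SE 0.14), with 35 of 41 probe sets below 0. MKO replicate 2 was close to the higher WT arrays and MKO replicate 1 was the lowest array, without which the difference was −0.08. Postn, encoding periostin of tendon and scar, differed by −0.21 (SE 0.21) and turned to 0.05 without MKO replicate 1. Tnc, encoding tenascin C of myotendinous junctions, differed by −0.26 (SE 0.21) and Tnxb, encoding tenascin X, by −0.03 (SE 0.14). Vcan, encoding the large proteoglycan versican, differed by 0.13 (SE 0.20), and 2 dim Vcan probe sets at 1.08 and 1.72 raised its mean; with bright probe sets only it stood at −0.0008.

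Elastic fibres consist of elastin on a scaffold of fibrillin microfibrils, and 6 of their 8 genes were below 0, none at an unadjusted p under 0.05. Fbn1, encoding fibrillin 1, read 7.90, 8.02 and 7.64 in WT and 7.29, 7.78 and 7.76 in MKO, a difference of −0.24 (SE 0.14) with 53 of 61 probe sets below 0. MKO replicate 1 was the lowest array and the other MKO arrays lay between the WT arrays, and without MKO replicate 1 the difference was −0.08. Fbln2, encoding fibulin 2, read 7.88, 7.65 and 7.86 in WT and 7.53, 7.80 and 7.57 in MKO, a difference of −0.17 (SE 0.11). Eln differed by −0.19 (SE 0.15), Fbln1 by −0.22 (SE 0.18) and Mfap5, a microfibril glycoprotein gene, by −0.18 (SE 0.15). Fbln5, which helps elastin assemble, differed by 0.0017 (SE 0.15) and Emilin1 by 0.02 (SE 0.19). Fbn2, encoding the mainly embryonic fibrillin 2, differed by −0.02 (SE 0.16) and was the 1 member of the 46 whose mean level lay below the median gene.

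Basement membrane genes were below 0 for all 8, with a median of −0.10 and none at an unadjusted p under 0.05, although Nid2 was above 0 after quantile normalization (0.03) or median centring (0.01) and Lama4 after quantile normalization (0.0022). With the median of probe sets, Nid1, Lama2, Lamb1 and Lamb2 stood at 0.04, 0.10, 0.02 and 0.14. Lamb1 and Lamc1, encoding laminin chains β1 and γ1, had the smallest p. Lamb1 read 6.88, 6.72 and 6.45 in WT and 6.10, 6.64 and 6.53 in MKO, a difference of −0.26 (SE 0.16). Lamc1 read 8.34, 8.58 and 8.06 in WT and 7.91, 8.28 and 8.22 in MKO, a difference of −0.19 (SE 0.14). In both, WT replicate 3 lay below MKO replicates 2 and 3. Without MKO replicate 1 the differences were −0.10 for Lamb1 and −0.08 for Lamc1, and without WT replicate 2 that of Lamc1 was −0.07. Lama2, the laminin chain of the muscle fibre whose loss causes a muscular dystrophy, differed by −0.12 (SE 0.11, 95% interval −0.37 to 0.13), and Lama4, of vessels, by −0.03 (SE 0.15). Lamb2, enriched at synapses, differed by −0.06 (SE 0.11), the nidogens Nid1 and Nid2, which link laminin to collagen IV, by −0.07 (SE 0.13) and −0.01 (SE 0.16), and Hspg2, encoding perlecan, by −0.14 (SE 0.11). The mean of the 8 genes on each array, relative to WT, was 0.07, 0.08 and −0.16 in WT and −0.37, 0.06 and −0.03 in MKO, so that MKO replicate 1 alone lay below all WT arrays. Without MKO replicate 1 the differences of Nid1, Nid2, Lama4 and Lamb2 were above 0, at 0.09, 0.13, 0.11 and 0.04.

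The membrane proteins of the cells that make matrix were both below 0. Pdgfra, encoding the PDGF receptor that marks fibro-adipogenic progenitors, read 6.98, 6.52 and 6.76 in WT and 6.24, 6.46 and 6.54 in MKO. The groups overlapped slightly, and the difference was −0.34 (SE 0.14, 95% interval −0.64 to −0.04, unadjusted p = 0.031). Of its 17 probe sets, 12 were below 0, but 3 at −1.52, −1.24 and −1.24 carried much of the mean, and with the median of probe sets the gene stood at −0.0038. The unadjusted p was over 0.05 without WT replicate 1, WT replicate 3 or MKO replicate 1, where the difference was −0.23, −0.34 and −0.25. Counting changes of processing too, that p was under 0.05 in 5 of 15 alternatives. Tnmd, encoding tenomodulin of mature tenocytes, read 6.30, 6.22 and 5.54 in WT and 5.40, 5.56 and 5.99 in MKO, a difference of −0.37 (SE 0.21). It was −0.61 without WT replicate 3, −0.23 without WT replicate 1 and −0.24 without MKO replicate 1.

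**Figure D3:**
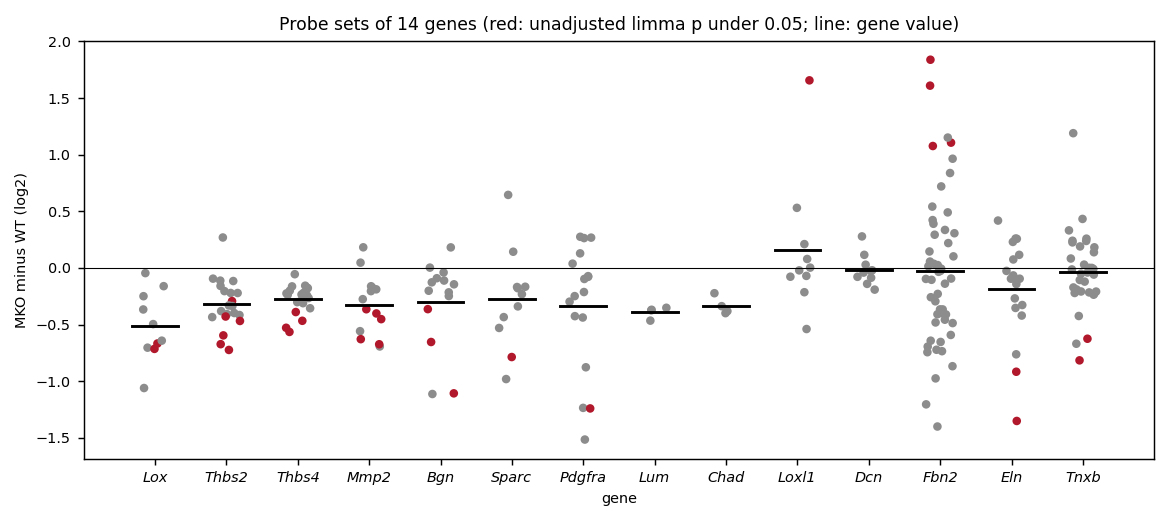
MKO minus WT difference on the log2 scale of every probe set of 14 members, with red points for an unadjusted limma p under 0.05 and a black line for the value of the gene. All probe sets of Lox, Thbs4, Lum and Chad lie below 0, while those of Fbn2 spread from −1.40 to 1.84.

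Probe sets gave a finer view of the same arrays. Of the 957 probe sets of the 46 genes, 685 were below 0 (71.6%, against 52.1% of 233753 probe sets). None passed when adjusted over all probe sets, where the smallest adjusted p was 0.979. At an unadjusted p under 0.05, 72 were lower (2.87% of all probe sets were) and 10 higher (2.11% were). All probe sets were below 0 in 4 genes, Lox, Thbs4, Lum and Chad, and those below 0 outnumbered those above in 41 of the 46. Groups did not overlap, with MKO the lower, in 89 (5.21% of all probe sets). Probe sets of a gene share its RNA and are not replicates.

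At an unadjusted p under 0.01, 15 were lower (0.567% of all probe sets were) and 1 higher (0.334% were), and all 16 had groups that did not overlap. Fn1 held 4 of the 15, at −0.80, −0.52, −0.38 and −0.33, and Hspg2 held 2, at −0.78 and −0.41. A few stood far from the value of their gene. Tnxb probe set 17336698 read 8.50, 8.31 and 7.98 in WT and 7.38, 7.37 and 7.60 in MKO, a difference of −0.82 (SE 0.18), against −0.03 for the gene. Lama4 probe set 17232598 read 7.02, 6.98 and 7.13 in WT and 5.90, 6.38 and 6.27 in MKO, a difference of −0.86 (SE 0.23), against −0.03 for the gene. Eln probe set 17453468 differed by −1.35 (SE 0.35), against −0.19 for the gene. The 1 probe set that was higher, 17354542 of Fbn2, read 4.92, 5.02 and 4.76 in WT and 6.16, 5.75 and 6.12 in MKO, a difference of 1.11 (SE 0.31). The position of a probe set within its gene was not used here. The other 6 of the 15, 1 each in Lamc1, Sparc, Thbs4, Thbs2, Fbn1 and Bgn, ranged from −0.79 to −0.41.

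**Figure D4:**
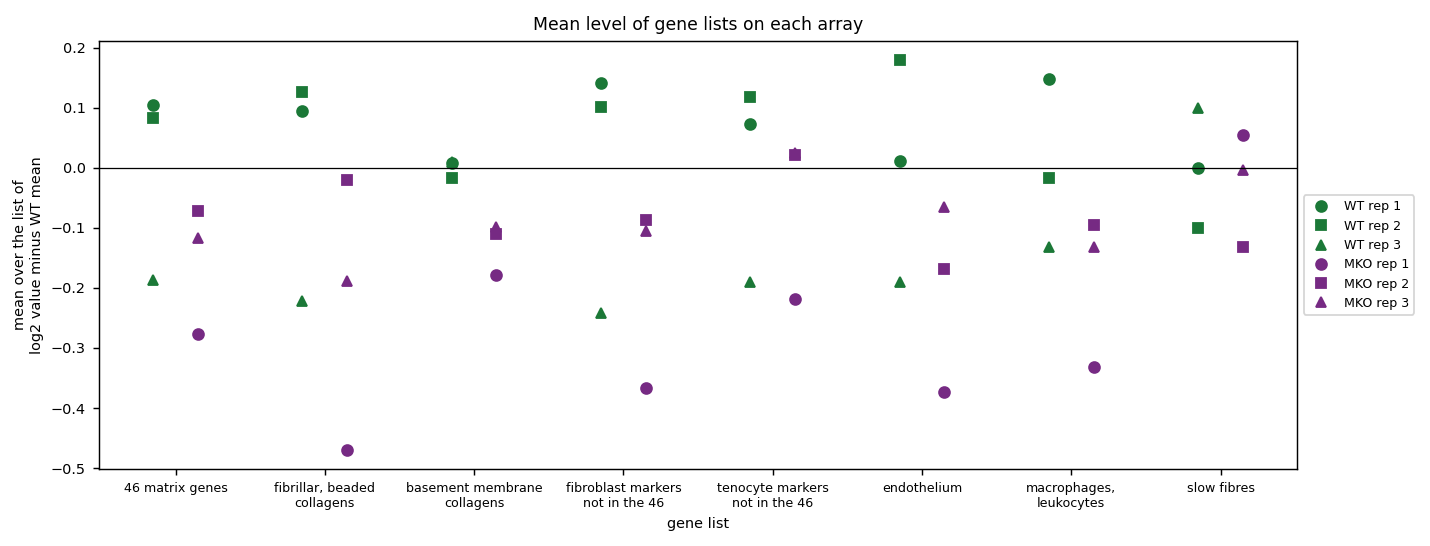
Mean over each of 8 gene lists of the log2 value minus the WT mean of the gene, on each of the 6 arrays (green WT, purple MKO, with a symbol for each replicate). WT replicate 3 and MKO replicate 1 are low for the 46 genes, the fibrillar and beaded collagens and the markers of fibroblasts, tenocytes and endothelium, and neither is the lowest of its group for the slow fibre genes. Col1a1, Col1a2 and Col3a1 are in both the collagen list and the fibroblast list.

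Markers of several non-muscle cell types moved with the matrix genes from mouse to mouse. Of 13 fibroblast markers, 13 were below 0, with 1, Pdgfra, at an unadjusted p under 0.05. Relative to WT, the 10 of them outside the 46 genes had means of 0.14, 0.10 and −0.24 in WT and −0.37, −0.09 and −0.11 in MKO. These 10 include the matrix genes Col1a1, Col1a2 and Col3a1, which are counted again among the fibrillar and beaded collagens. Of 10 tenocyte markers, 9 were below 0, and the 5 outside the 46 genes had means of 0.07, 0.12 and −0.19 in WT and −0.22, 0.02 and 0.03 in MKO. All 9 endothelial markers were below 0, with means from −0.19 to 0.18 in WT and −0.37 to −0.07 in MKO, and 9 of 10 macrophage and leukocyte markers were, with means from −0.13 to 0.15 in WT and −0.33 to −0.10 in MKO. Single genes weighed on these means: the endothelial median difference was −0.10 with the lowest gene at −0.73, and the leukocyte median −0.13 with Cd68 at −0.82. Pericyte and smooth muscle markers were below 0 for 7 of 9, with means from −0.07 to 0.04 in WT and −0.18 to 0.03 in MKO. In these 5 lists WT replicate 3 was the lowest WT array and MKO replicate 1 the lowest MKO array. After quantile normalization the pericyte and smooth muscle list departed from this order. There MKO replicate 3, at −0.15, lay below MKO replicate 1, at −0.09. The part of these 5 cell types in the difference of the matrix genes was not tested.

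Other marker lists did not follow that order. Slow fibre genes, which include Myh7, the slow myosin heavy chain, were below 0 for 5 of 8 and had means from −0.10 to 0.10 in WT and −0.13 to 0.05 in MKO, with WT replicate 3 the highest WT array. Myh7 read between 10.90 and 11.21 on all 6 arrays, and Myh2, a fast myosin heavy chain, between 11.40 and 11.71. Fast fibre genes were below 0 for 7 of 10, 2 of them at an unadjusted p under 0.05, with a median difference of −0.06. Their means ran from −0.11 to 0.11 in WT and were −0.90, −0.29 and 0.13 in MKO. Myh4, the type IIb myosin, had the lowest difference of that list, −2.51. It read 10.89, 9.48 and 11.72 in WT and 5.11, 7.94 and 11.51 in MKO, and the groups overlapped. Satellite cell markers were below 0 for 3 of 6 (−0.04 to 0.08 and −0.02 to 0.05), Schwann cell and nerve markers for 2 of 6 (−0.04 to 0.04 and 0.03 to 0.08), and cartilage and bone markers for 4 of 9 (−0.08 to 0.15 and −0.07 to 0.21). Adipocyte markers were below 0 for 4 of 7 and varied widely in both groups (−0.30 to 0.18 and −0.41 to 0.48). Of the erythroid markers 1, Alas2, was measured, with overlapping groups and a difference of −0.47 (SE 0.27).

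Genes of the same pathways outside the 46 were counted in the same way. Their lists were likewise chosen with earlier results known, so these shares are also a description. Over 9 lists with 119 measured genes that are no members, 93 (78.2%, against 53.4% of all genes) were below 0, with a median of −0.10, and single lists ranged from 4 of 7 to 12 of 12 genes below 0. Of these genes 7 were lower at an unadjusted p under 0.05 (5.88%, against 2.41% of all genes), 1 was higher (0.84%, against 1.92%), and 0 passed the adjusted threshold in either direction. Fibrillar and beaded collagens were below 0 for 12 of 12, with a median of −0.23, and 1 at an unadjusted p under 0.05, Col6a2 (−0.26, SE 0.12). Basement membrane collagens were below 0 for 7 of 8, with a median of −0.13. Their list means were 0.01, −0.02 and 0.01 in WT and −0.18, −0.11 and −0.10 in MKO, which did not overlap, although 4 of the 8 genes lay below the median gene level. Such separation was not particular to this list. Means of other elastic fibre genes and of other laminin and basement membrane genes also lay apart, but overlapped after quantile normalization. In Col4a1 (−0.23, SE 0.13) and Col4a2 (−0.23, SE 0.13), which encode the main collagen IV chains, the groups overlapped and WT replicate 3 was the lowest WT array.

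Enzymes that fold and process collagen were below 0 for 15 of 20, with 1 at an unadjusted p under 0.05. This was Leprel1, now named P3h2, a prolyl 3-hydroxylase that modifies collagen IV among others. It read 9.01, 9.20 and 9.20 in WT and 8.71, 8.72 and 8.66 in MKO, a difference of −0.44 (SE 0.09, 1.36-fold lower, limma adjusted p = 0.625 over all genes). Its MKO arrays lay close together and below every WT array.

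Genes of TGF-beta ligands, latency and receptors, which drive matrix production, were below 0 for 15 of 20, with a median of −0.07 and 1 at an unadjusted p under 0.05, the latency anchor Lrrc32 (−0.39, SE 0.16). Of 7 target genes of TGF-beta and YAP, 4 were below 0 (57.1%, median −0.0040), with Ankrd1 at −0.51 (SE 0.20) and Cyr61, now Ccn1, at 0.13 (SE 0.11). Other proteases and inhibitors were below 0 for 13 of 19, with Adamts5, an aggrecanase that also cuts versican, at −0.36 (SE 0.14) and Reck, an inhibitor of metalloproteinases, at −0.33 (SE 0.14), both lower at an unadjusted p under 0.05, and the protease gene Adamts9 at 0.32 (SE 0.17). Other elastic fibre genes were below 0 for 7 of 8 with none at an unadjusted p under 0.05. Other proteoglycan genes were below 0 for 14 of 17, with Prg4, encoding lubricin, at −0.32 (SE 0.14). Other laminin and basement membrane genes were below 0 for 6 of 8, and Tinagl1, a matrix protein of vessels and basement membranes, was the 1 gene of the 9 lists that was higher at an unadjusted p under 0.05. It read 6.31, 6.17 and 6.33 in WT and 6.59, 6.56 and 6.69 in MKO, a difference of 0.34 (SE 0.12).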

How the data were processed

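Total RNA from 6 soleus muscles was hybridised to Affymetrix whole-transcript mouse arrays. Per the labels' protocols and the submitters' processing notes, the authors normalized and summarised the signals by RMA in Affymetrix Expression Console. The deposited values are log2 signals per probe set, and neither the genome build nor the annotation is named in the sources used here. The design text speaks of a gene-level export, while the table holds 269751 rows, and a gene had 8 probe sets at the median. Of these, 233753 were annotated to 1 gene symbol, 5106 to several and 30892 to none, and only the first were used. A gene's value was the mean of its probe sets on each array. Array levels of different genes are not on a common scale, so the contrasts between genes compare how their difference within an array varied between groups.

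WT and MKO were compared over 23152 genes by limma's moderated test (version 3.58.1, run under R 4.3.3, with a trend of variance on level), with Benjamini-Hochberg adjustment over all genes, or over all probe sets, and 95% intervals from the same fit. The code was tested on simulated data. The LPE test named in the design text was not used. Within-array contrasts had two-sided exact permutation tests in Python 3.11.15. With 3 arrays per group, their number limits the precision. Of 228 entries in the pathway and marker lists, 217 were measured, 8 by a synonym.

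The 46 genes and all lists were chosen with earlier results of these data known. Values on every array were given for members with an unadjusted p under 0.05 or non-overlapping groups and for at least the 2 smallest p in each role group; of pathway genes, those named were among the 3 smallest p of their list. Probe sets named were past an unadjusted p of 0.01 or stood over 1.5-fold from their gene. Alternatives were other normalization, centring, probe set summary, filters, array weights, a replicate block and leaving out each array.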

Additional observations from a re-analysis of the deposited data

How the results depend on the processing

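No member and no member probe set had an adjusted p under 0.05 under any alternative, and over all genes the count of 0 became 1 with array weights and 0 to 1 with 1 array left out (1 without WT replicate 1 and without WT replicate 3). The 7 members lower at an unadjusted p under 0.05 became 2 without the variance trend, 3 with median centring, 1 with the median of probe sets, 3 with bright probe sets only, 11 with array weights, 13 without WT replicate 3 and MKO replicate 1, and 2 to 15 with 1 array left out. Over all genes, the 558 lower became 354 with median centring, 371 among genes above the median level, 1000 with array weights and 393 to 975 with 1 array left out. The 444 higher became 129 among genes above the median level, 294 with bright probe sets only, 805 with array weights and 300 to 607 with 1 array left out. The causes of these shifts were not tested. The labels do not say whether replicate numbers pair the mice. Deviations of same-numbered mice correlated at −0.0881, 0.0907 and −0.236 across genes, which cannot settle how the mice were handled. With the replicate block 6 members were lower at an unadjusted p under 0.05, and 474 genes lower and 399 higher. Of the 46 members, 26 kept a sign, below 0, under all 15 alternatives. Signs turned in the other 20. With bright probe sets only, Loxl1 was −0.079, Timp1 0.0304, Fbn2 0.0065, Emilin1 −0.035 and Vcan −0.0008. With the median of probe sets, Timp3 was −0.019, Nid1 0.043, Lama2 0.10, Lamb1 0.025 and Lamb2 0.14. With array weights, Timp3 was −0.046, Thbs3 0.0035, Dcn 0.0065, Emilin1 −0.045 and Nid2 0.081. Without WT replicate 3 and MKO replicate 1, Timp3 was −0.11, Dcn 0.06, Tnxb 0.0078, Emilin1 −0.27, Nid1 0.05, Nid2 0.05 and Lamb2 0.0007. With quantile normalization, Thbs3 was 0.033, Dcn 0.033, Tnxb 0.0065, Nid2 0.028 and Lama4 0.0022. With median centring, Thbs3 was 0.0024, Dcn 0.0083, Fbn2 0.001 and Nid2 0.014. With 1 array left out, the ranges were −0.062 to 0.21 for Loxl3, −0.20 to 0.056 for Loxl4, −0.25 to 0.062 for Timp1, −0.089 to 0.079 for Timp3, −0.13 to 0.19 for Thbs3, −0.094 to 0.098 for Dcn, −0.27 to 0.0301 for Fmod, −0.41 to 0.049 for Postn, −0.15 to 0.085 for Tnxb and −0.10 to 0.023 for Fbn2. They were −0.13 to 0.22 for Emilin1, −0.12 to 0.15 for Fbln5, −0.17 to 0.086 for Nid1, −0.16 to 0.13 for Nid2, −0.15 to 0.11 for Lama4, −0.11 to 0.044 for Lamb2 and −0.057 to 0.29 for Vcan.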
